A study of Mus musculus with 9 samples.

Results

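The genes described here are 5 members of the interferon-induced transmembrane family, Ifitm1, Ifitm2, Ifitm3, Ifitm6 and Ifitm10, and Bst2, which encodes tetherin. These 6 genes were chosen by symbol from the 55401 genes of the expression table, with their changes in these samples already known, so that their levels and fold changes are given as a description and carry no test. RAW264.7 cells, a macrophage line from a tumour that Abelson murine leukemia virus induced in a male mouse, wild type as labelled, were exposed to DMSO, to DMSO with lipopolysaccharide (LPS) or to LPS with skatole (LPS + Ska) for 24 h, and mRNA abundance was reported as TPM, the share of a gene among all transcripts of a column after correction for length, in 3 columns per group, labelled replicates 5, 6 and 7. LPS is a bacterial membrane component that activates macrophages through a Toll-like receptor, and skatole is 3-methylindole, tested by the study as a modulator of macrophage polarization. DMSO is named in the labels of the DMSO and LPS groups and not in that of the LPS + Ska group. A single transformed line stood for macrophages, and none of the samples used here received skatole without LPS.

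The Ifitm proteins are small membrane proteins, of which Ifitm3 sits mainly in endosomes and Ifitm1 mainly at the cell surface, and they hinder the fusion of many enveloped viruses with the host membrane. Tetherin has an anchor in the membrane at each end and holds budding virions on the surface of the cell that made them. Transcription of both is raised by interferons through a complex that contains STAT2 and IRF9 and binds interferon-stimulated response elements (ISRE), and activated macrophages make type I interferon that acts back on them. Ifitm10, by contrast, is a family member that is not known for induction by interferon.

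Ifitm2, Ifitm1, Ifitm3 and Ifitm6 lie in one cluster of 63.1 kb on chromosome 7 of the mouse build GRCm38 (mm10). Ifitm2 occupies chr7:140954837-140955987 on the minus strand, Ifitm1 chr7:140967221-140969825 on the plus strand, Ifitm3 chr7:141009586-141010770 and Ifitm6 chr7:141015699-141017924, both on the minus strand. Ifitm3 and Ifitm6 are 4.93 kb apart. Ifitm10 (chr7:142325837-142373753, minus strand) lies 1308 kb beyond Ifitm6, and Bst2 (chr8:71534255-71537456, minus strand) is on another chromosome. The coding sequences of Ifitm2 and Ifitm3 were identical at 80.9% of their 408 aligned bases, those of Ifitm3 and Ifitm6 at 65.7% of 367, and those of Ifitm3 and Ifitm10 at 66.7% of 390.

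The start-site sequences of the 4 members that were expressed are shown because these genes did not move together. Each stretch runs 5′ to 3′ from 220 bases before to 30 bases after the RefSeq transcription start on the gene's own strand (GRCm38.p6, minus strand for all 4). Capitals mark the ISRE core, searched as GAAANNGAAA on both strands. The stretches are chr7:141010715-141010964 for Ifitm3, chr7:140955932-140956181 for Ifitm2, chr7:141016863-141017112 for Ifitm6 and chr8:71537443-71537692 for Bst2.
Ifitm3: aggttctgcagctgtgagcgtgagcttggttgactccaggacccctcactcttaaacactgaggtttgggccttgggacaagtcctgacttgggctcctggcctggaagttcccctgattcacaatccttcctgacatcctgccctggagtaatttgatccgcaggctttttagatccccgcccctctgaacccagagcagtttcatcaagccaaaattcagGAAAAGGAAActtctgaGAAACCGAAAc
Ifitm2: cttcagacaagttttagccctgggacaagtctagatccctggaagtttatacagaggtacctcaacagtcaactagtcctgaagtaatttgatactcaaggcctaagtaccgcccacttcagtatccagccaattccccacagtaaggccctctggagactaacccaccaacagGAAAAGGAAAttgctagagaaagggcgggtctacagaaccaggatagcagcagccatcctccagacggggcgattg
Ifitm6: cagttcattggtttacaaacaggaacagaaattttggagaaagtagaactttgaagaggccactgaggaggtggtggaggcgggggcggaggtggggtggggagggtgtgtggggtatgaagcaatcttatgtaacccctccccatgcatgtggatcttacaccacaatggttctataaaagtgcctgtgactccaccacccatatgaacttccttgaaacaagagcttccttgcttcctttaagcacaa
Bst2: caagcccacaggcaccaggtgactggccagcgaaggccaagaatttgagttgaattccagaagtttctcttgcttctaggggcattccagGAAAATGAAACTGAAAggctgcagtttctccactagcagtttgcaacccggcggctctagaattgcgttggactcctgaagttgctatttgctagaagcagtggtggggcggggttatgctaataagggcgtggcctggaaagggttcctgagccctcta

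Ifitm3 held 2 ISRE cores, at bases 3 and 20 counted from the start site as base 1, and Ifitm2 held 1 core at -46, the base before the start being -1. Bst2 held 2 that overlapped each other, beginning at -130 and -124. None was found in Ifitm6, or in the windows of Ifitm1 and Ifitm10. For Ifitm6 and Ifitm1 the windows did not reach the upstream end of the annotated gene, so any start beyond them was not searched. The windows searched ran from 250 bases before to 50 after each start, and 1131 of the 32851 windows of the reference (3.44%) held the core. In other lists described below, 12 of 22 interferon effector genes with a window and 2 of 16 interferon signalling genes held the core. It was held by 0 of 5 membrane restriction genes and 0 of 8 genes acting on IFITM proteins or tetherin. Among other CD225 family genes it was held by 0 of 6. A gene was counted if any of its windows held the core, whereas 3.44% is a share of windows, so these are unlike units. The GAS motif (TTCNNNGAA, the gamma-activated site, present in 8.3% of windows) was found in Ifitm3, where it overlapped the downstream ISRE core, in Ifitm6 at -10, and in Bst2 at -136, where it overlapped the upstream core. A kappaB match, the motif of NFκB (8.46% of windows), was found in Bst2 at -142, overlapping the GAS match, and on the other strand of Ifitm3 at -116. A match is a description of the letters and not evidence of a bound factor.

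**Figure D1:**
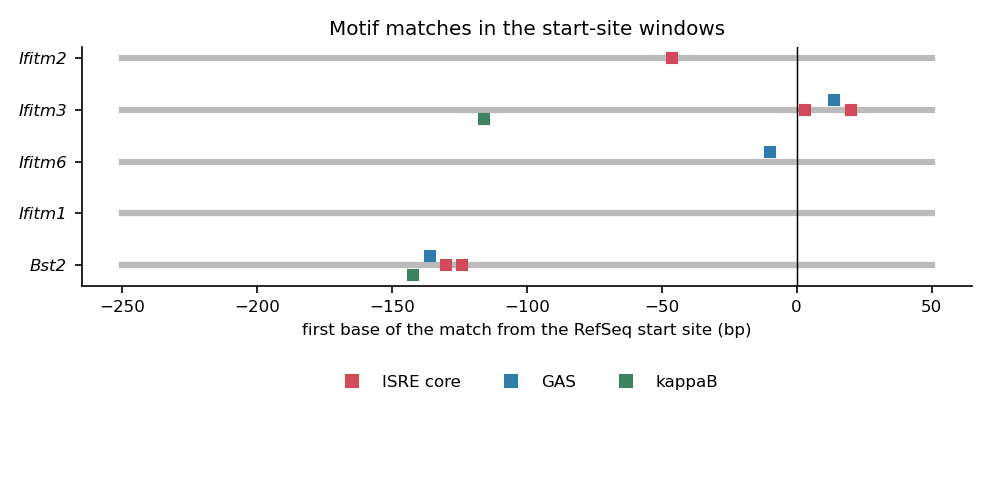
Position of the first base of each ISRE core, GAS and kappaB match (squares) in the windows of 5 members, in bp from the RefSeq start site (vertical line). Ifitm3 and Bst2 held all 3 motifs, Ifitm2 the ISRE core alone at -46 and Ifitm6 the GAS motif alone at -10.

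Replicate 5 of the LPS and LPS + Ska groups was tied to the other columns. Among genes above 0 in replicates 6 and 7, the value of replicate 5 was their average within 1e-05 TPM in 17950 of 17950 genes under LPS and in 17658 of 17658 under LPS + Ska, against 10 of 16674 in DMSO. Where 1 of replicates 6 and 7 was at 0, the other was 3 times replicate 5 (within 0.01) in 3203 of 4042 genes under LPS and 3124 of 4047 under LPS + Ska and above that in 0, against 1 of 1295 in DMSO, where 205 were above it. Columns built as a mean plus and minus the difference of 2 values, with negative results set to 0, would have this form. Each of those groups therefore held at most 2 separate values per gene, and fits were repeated with 2 values computed back from the columns on that form, called recovered values here, in place of the 3 columns. Adjusted p-values below come from the 3-column fit unless recovered values are named, and that fit counts more values than these groups hold. How the columns were made is not given in the sources used here. Nothing in the labels says that the columns came from separate cultures, so that errors measure the spread between these columns, which may be technical. All 8 macrophage markers were detected in every group, with a summed level of 12020 to 12987 TPM in DMSO, 7133 to 7549 with LPS and 13479 to 13700 with LPS + Ska, most of it Lyz2, which averaged 9151, 4423 and 10061 TPM. The sum followed Lyz2, and the other markers took other courses. Csf1r averaged 835, 522 and 467 TPM in the same order, Cd68 839, 657 and 608 TPM and Cd14 1296, 1523 and 2218 TPM. In LPS against DMSO, Lyz2 and Csf1r were called lower and no marker higher. In LPS + Ska against LPS, Lyz2 was called higher and Fcgr1 lower (-0.59 ± 0.06, adjusted p = 0.00019, and 0.0034 with recovered values). The summed T cell, B cell and fibroblast markers stayed at or below 0.672 TPM in every column, and the epithelial markers were all at 0. The part of these marker differences in the levels below was not tested, and in bulk RNA fewer expressing cells and less RNA per cell cannot be told apart.

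Ifitm3 was the most abundant member under LPS and under LPS + Ska. Its level was 302, 279 and 301 TPM in the DMSO columns, 959.9, 961 and 959 TPM in the LPS columns and 1188, 1136 and 1239 TPM in the LPS + Ska columns. The 3 groups did not overlap, and each step was upward. The share of all genes without overlap between groups was not counted. Nothing is therefore read from the lack of overlap here or for the members below. In the LPS and LPS + Ska groups it rests on at most 2 separate values. On the scale of log2(TPM + 1), on which every fold change below is given with its standard error (SE) and which understates changes of low genes, Ifitm3 differed by 1.70 ± 0.05 between LPS and DMSO and by 0.31 ± 0.05 between LPS + Ska and LPS, a 3.26-fold and a 1.24-fold higher level. It moved from rank 477 of all genes in DMSO to rank 119 with LPS and rank 92 with LPS + Ska.

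Ifitm6, a murine family member expressed in macrophages, took the same course at lower levels. The DMSO columns held 32.3, 37.0 and 30.8 TPM, the LPS columns 90.7, 92.4 and 89.0 TPM and the LPS + Ska columns 123, 138 and 108 TPM. The groups did not overlap, although the LPS + Ska columns were spread widely. The difference was 1.42 ± 0.09 for LPS over DMSO and 0.43 ± 0.09 for LPS + Ska over LPS. Across the 9 columns the log2 levels of Ifitm6 and Ifitm3 had a Pearson r of 0.9810, given as a description over columns that share groups.

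Ifitm2 moved the opposite way at both steps. It was the most abundant member in DMSO, at 352, 370.1 and 340.2 TPM, and stood at 241, 248 and 233 TPM under LPS and at 186, 161 and 211 TPM under LPS + Ska. Again the 3 groups did not overlap, and here every step was downward. The difference was -0.55 ± 0.09 for LPS against DMSO, -0.38 ± 0.09 for LPS + Ska against LPS and -0.94 ± 0.09 for LPS + Ska against DMSO. Over the 9 columns its r was -0.9256 with Ifitm3 and -0.9597 with Ifitm6.

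Bst2 rose with LPS and was lower again with skatole. Its columns read 88.4, 87.0 and 92.2 TPM in DMSO, 311, 289 and 333 TPM under LPS and 188, 144 and 233 TPM under LPS + Ska. Every LPS + Ska column lay below every LPS column and above every DMSO column. The difference was 1.79 ± 0.14 for LPS over DMSO, -0.75 ± 0.14 for LPS + Ska against LPS and 1.04 ± 0.14 for LPS + Ska over DMSO. With recovered values, which place LPS + Ska at 166 and 210 TPM and LPS at 299.8 and 322 TPM, the second of these was -0.73 ± 0.11. Bst2 ranked 1948 of all genes in DMSO, 438 with LPS and 813 with LPS + Ska.

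Ifitm1 and Ifitm10 were near 0 throughout and did not reach the mean of 1 TPM required for a fit. Ifitm1 read 0, 2.13 and 0.093 TPM in DMSO, between 0.623 and 0.771 TPM under LPS and between 0.213 and 0.312 TPM under LPS + Ska. The DMSO columns of Ifitm1 enclosed both other groups, and replicate 6 made up nearly all of their mean. Ifitm10 read 0.279, 0.158 and 0 TPM in DMSO, was listed at 0 in all LPS columns and lay between 0.0893 and 0.228 TPM under LPS + Ska. At these levels no change of either gene can be read.

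In DMSO the order of levels was Ifitm2, Ifitm3, Bst2 and Ifitm6, and under LPS it was Ifitm3, Bst2, Ifitm2 and Ifitm6, in both cases with no overlap between neighbours in the order. Under LPS + Ska, Ifitm3 again came first and Ifitm6 below the others, and the columns of Bst2 (144 to 233 TPM) and Ifitm2 (161 to 211 TPM) overlapped.

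**Figure D2:**
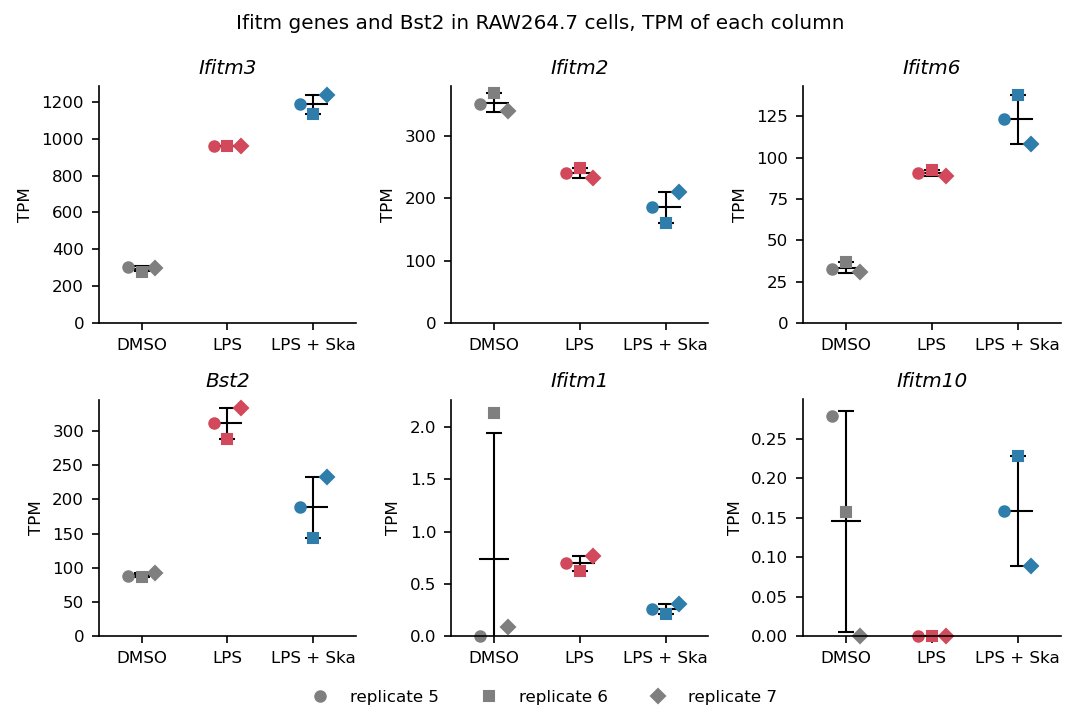
TPM of the 6 members in each column, with replicates 5, 6 and 7 as circles, squares and diamonds and the group mean ± SD as bars (n = 3 columns). Ifitm3 and Ifitm6 step upward from DMSO to LPS and again to LPS + Ska, Ifitm2 steps downward both times, Bst2 peaks with LPS, and Ifitm1 and Ifitm10 stay near 0.

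Adding the 5 Ifitm genes together, the summed level was 682 ± 9.19 TPM (SD, n = 3 columns) in DMSO, 1292 ± 10.3 TPM under LPS and 1497 ± 61.9 TPM under LPS + Ska. Over the 2 recovered values of each tied group, the SD was 7.30 TPM under LPS and 43.8 TPM under LPS + Ska. The make-up of the sum turned over. Ifitm2 supplied 51.9% ± 1.65 (SD) of it in DMSO, 18.6% ± 0.447 with LPS and 12.4% ± 1.15 with LPS + Ska, whereas Ifitm3 supplied 43.1% ± 2.25, 74.3% ± 0.518 and 79.3% ± 0.184. The share of Ifitm6 was 4.89% ± 0.424, 7.02% ± 0.0768 and 8.26% ± 1.34. Ifitm3 stood at 0.832 ± 0.0688 times the level of Ifitm2 in DMSO, 3.99 ± 0.124 times with LPS and 6.45 ± 0.592 times with LPS + Ska. These ratios are taken within a column and therefore do not depend on how the columns were scaled to each other.

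**Figure D3:**
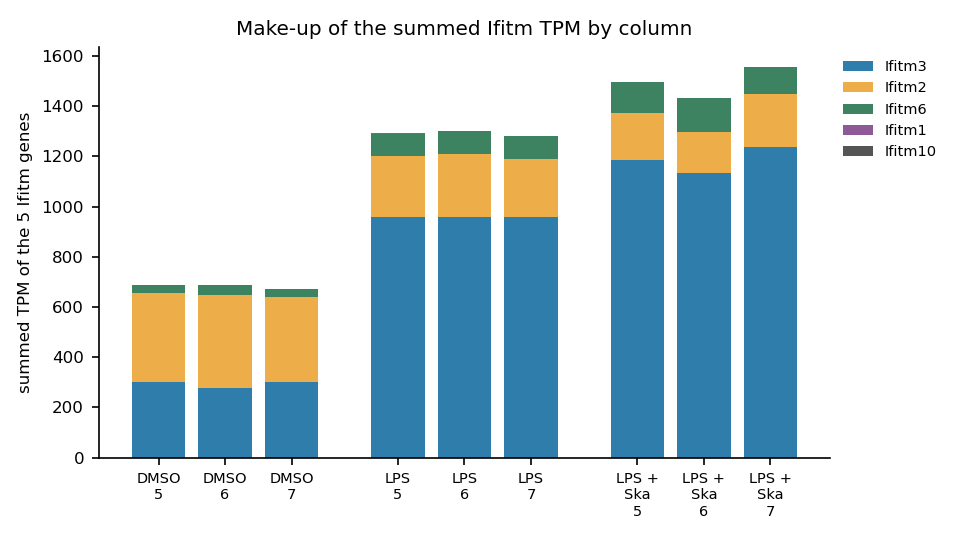
Summed TPM of the 5 Ifitm genes in each of the 9 columns, stacked by gene. Ifitm2 and Ifitm3 share the DMSO columns about evenly, and Ifitm3 makes up 73.8% to 79.5% of each LPS and LPS + Ska column.

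The members were next set beside all genes tested. Of the 6 members 4 were among the 12819 genes with a mean of at least 1 TPM, and a gene was called when its limma p-value adjusted over all 12819 genes was below 0.05 and its fold change above 1.5 or below 0.67. In LPS against DMSO, Ifitm3, Ifitm6 and Bst2 were called higher and no member lower, where 12.7% of all tested genes were called higher and 20.0% lower. Ifitm2 stayed inside the fold limit there, at 0.681 times the DMSO level. In LPS + Ska against LPS, Bst2 was called lower, at 0.596 times the LPS level, and no member was called higher, where 3.35% of tested genes were called higher and 6.14% lower. The call of Bst2 was lost without LPS + Ska replicate 6, where its difference was -0.57 ± 0.09 and inside the fold limit. Because the columns of that group are tied, leaving 1 out does not remove a separate sample, and that error comes from dependent columns. With recovered values Bst2 was still called lower (-0.73 ± 0.11). Ifitm3, Ifitm6 and Ifitm2 had fold changes within the limits in this comparison. In LPS + Ska against DMSO, Ifitm3, Ifitm6 and Bst2 were called higher and Ifitm2 lower, where 11.4% were called higher and 25.3% lower. The 3 comparisons share their groups, and because the genes were chosen on these values nothing is read from the counts. The median over all tested genes was -0.067, -0.096 and -0.18 in the same order, and scaling the columns to a common median ratio moved it to 0.0071, -0.0046 and -0.013 and left every call of a member as it was.

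Genes of the interferon pathway were taken from lists that were also written with earlier results known. The effector list held 25 genes that interferon induces and that act against viruses, of which 21 were tested. In LPS against DMSO, 17 of them were called higher and none lower (12.7% and 20.0% of all tested genes), and their median was 2.28. In LPS + Ska against LPS, 14 were called lower and none higher (6.14% and 3.35% of all tested genes). Their median was -1.14 against -0.096 for all tested genes. All 21 estimates of that comparison were below 0, from -2.26 to -0.0078, although that of Ifi35 was 0.090 with median-ratio scaling, 0.0079 without mitochondrial-genome and ribosomal protein genes, and 0.084 or 0.062 when replicate 6 of the LPS or of the LPS + Ska group was left out. In LPS + Ska against DMSO, 11 were called higher and 1, Samhd1, lower (11.4% and 25.3% of all tested genes), with a median of 0.86. The call of Samhd1 (-0.62 ± 0.06, adjusted p = 1.9e-05) was lost with median-ratio scaling (-0.44), without mitochondrial-genome and ribosomal protein genes (-0.57) and without LPS + Ska replicate 7 (-0.56). Bst2 lay inside the range of this list in each comparison, and Ifitm3 and Ifitm6 lay above all 21 effector genes in LPS + Ska against LPS.

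The largest falls with skatole among the effectors were those of Ifit1, which binds viral RNA that lacks a host cap, of Mx2, a dynamin-like GTPase, and of Cmpk2, a nucleotide kinase. Ifit1 differed by -2.26 ± 0.15 (adjusted p = 2.1e-05), Mx2 by -2.20 ± 0.13 (adjusted p = 1.5e-05) and Cmpk2 by -2.16 ± 0.26 (adjusted p = 0.00054). With recovered values the adjusted p was 0.00091 for Ifit1, 0.00058 for Mx2 and 0.0054 for Cmpk2. Ifit1 averaged 0.120 TPM in DMSO, 9.29 TPM under LPS and 1.15 TPM under LPS + Ska, so it passed the filter through the LPS columns, which favours a fall. The smallest differences were those of Ifi35 (-0.0078 ± 0.19, adjusted p = 0.98), of Trim25, a ubiquitin ligase of RIG-I signalling (-0.17 ± 0.09, adjusted p = 0.18), and of Oas1a, which makes the second messenger of RNase L (-0.43 ± 0.06, adjusted p = 0.0014, inside the fold limit). Of the 4 most abundant effectors, Ifi44 went from 3.42 TPM in DMSO to 206 TPM under LPS and 58.5 TPM under LPS + Ska. The last step was -1.80 ± 0.16 (adjusted p = 0.00014, and 0.0022 with recovered values). Samhd1, which depletes nucleotides, went from 114 to 101 and 74.2 TPM, Trim25 from 67.7 to 113 and 100.3 TPM, and the RNA-binding Zc3hav1 from 64.4 to 105 and 77.7 TPM. None of these 3 was called in LPS + Ska against LPS.

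Expressed as the part of the LPS increment over DMSO that was still present with skatole, in mean TPM, Bst2 retained 44.6%, while Ifitm3 stood at 134% and Ifitm6 at 156%. Among the 17 effectors called higher with LPS the median was 27.2%, from -3.61% for Isg20 to 72.7% for Trim25, and 0 of 17 reached 100%. Bst2 exceeded 15 of the 17 on this measure. Its log2 difference with skatole was smaller in size than those of the 14 effectors called lower. The 17 effectors were picked for being high in the LPS columns that also set the increment, which favours values below 100%. Neither these effectors nor the chosen members can test whether the Ifitm genes stand apart on this measure.

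**Figure D4:**
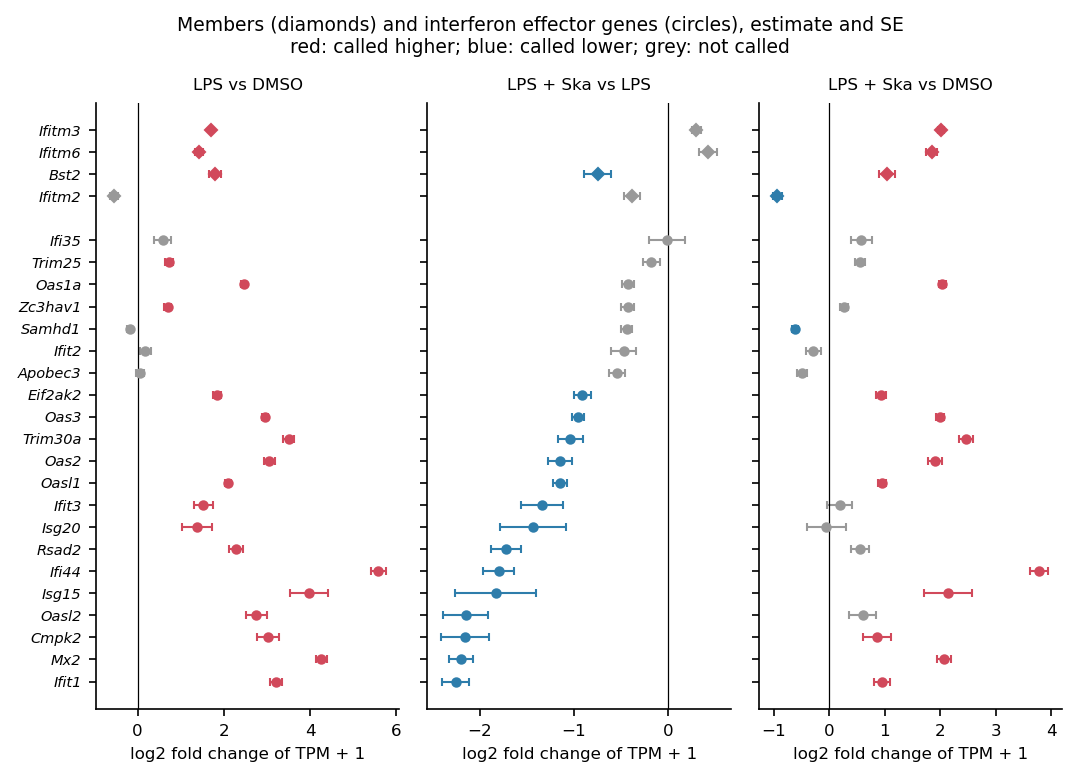
Log2 fold change of TPM + 1 ± SE in the 3 comparisons for the 4 tested members (diamonds) and the 21 tested effector genes (circles, ordered by LPS + Ska against LPS). In the middle panel the effectors run from -0.0078 to -2.26, Bst2 sits among them at -0.75, and Ifitm3 and Ifitm6 are the only points shown above 0 at 0.31 and 0.43.

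The signalling list covered the receptors, kinases, transcription factors and feedback genes of the interferon pathway, and 16 of its 18 genes were tested. In LPS against DMSO 5 were called higher and 6 lower, where 12.7% of all tested genes were called higher and 20.0% lower. The 4 genes called in LPS + Ska against LPS were all lower, where 3.35% of all tested genes were called higher and 6.14% lower. Usp18, a brake on the type I receptor, averaged 2.23 TPM in DMSO, 99.6 TPM under LPS and 38.3 TPM under LPS + Ska, a difference of -1.36 ± 0.30 for the last step (adjusted p = 0.01, and 0.049 with recovered values). With a pseudocount of 0.1 its call was lost at a difference of -1.38 ± 0.49. Irf7, the factor that amplifies interferon production, averaged 3.35, 96.1 and 38.0 TPM and differed by -1.33 ± 0.24 (adjusted p = 0.0037, and 0.017 with recovered values). Stat2 averaged 14.9, 12.4 and 6.38 TPM and differed by -0.85 ± 0.17 (adjusted p = 0.0063, and 0.014 with recovered values). Stat2 encodes a part of the complex that binds the ISRE, and Irf9, its DNA-binding part, differed by -0.34 ± 0.11 (adjusted p = 0.041, and 0.13 with recovered values), inside the fold limit. Ifnb1, the gene of interferon beta, stayed at or below a mean of 0.0496 TPM in all groups and was not tested. In LPS + Ska against DMSO 5 signalling genes were called higher and 8 lower, where 11.4% of all tested genes were called higher and 25.3% lower.

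Other restriction factors of the membrane were examined next. Of 6 such genes 4 were tested, and none was called in LPS + Ska against LPS. In that comparison 3.35% of all tested genes were called higher and 6.14% lower, so nothing is read from this count. Ly6e, a lipid-anchored surface protein that limits coronavirus fusion, averaged 769.9 TPM in DMSO, 1426 TPM under LPS and 1016 TPM under LPS + Ska. Its rise with LPS was 0.90 ± 0.08 (adjusted p = 1.8e-05, and 0.00014 with recovered values). Its difference with skatole was -0.49 ± 0.08 (adjusted p = 0.0028, and 0.018 with recovered values), inside the fold limit and of the same sign as that of Bst2. Serinc3, an infectivity inhibitor of the plasma membrane, differed by 0.097 ± 0.07 with skatole (adjusted p = 0.32), the ubiquitin ligase gene Marchf8 by 0.081 ± 0.11 (adjusted p = 0.61) and Zmpste24, a membrane protease that works with Ifitm3, by -0.017 ± 0.07 (adjusted p = 0.88). Marchf8 is listed as March8 in the reference and was entered under that name. Of 9 further genes of the CD225 domain family to which the Ifitm genes belong, Tmem91 was the only one tested, and its difference of -0.94 ± 0.30 with LPS (adjusted p = 0.021) was not called with recovered values (adjusted p = 0.056) and was also lost without DMSO replicate 5 (-0.58), without LPS replicate 5 or 6 and with no filter on low values (-0.94 in each). Ifitm5, the bone-specific gene at the edge of the cluster, averaged at most 0.745 TPM, and Ifitm7 at most 0.0914 TPM.

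Among 8 genes whose products modify, move or degrade IFITM proteins or tetherin, 7 were tested. None was called in LPS + Ska against LPS, where 3.35% of all tested genes were called higher and 6.14% lower. Nothing is read from this count either. Vapa, a membrane tether that binds Ifitm3, averaged 91.4 TPM in DMSO, 139 TPM under LPS and 154 TPM under LPS + Ska, and rose with LPS by 0.60 ± 0.07 (adjusted p = 8.4e-05), a call that was lost without DMSO replicate 5 (0.55) or 6 (0.57). Zdhhc20, a palmitoyltransferase of Ifitm3, averaged 37.4, 54.0 and 63.2 TPM and was higher with LPS + Ska than in DMSO, by 0.73 ± 0.10 (adjusted p = 0.00013). Setd7, which methylates Ifitm3, and Kdm1a, which removes that methyl group, differed between LPS + Ska and LPS by -0.062 ± 0.11 and -0.24 ± 0.10. Fyn, a kinase of Ifitm3, differed by -0.28 ± 0.09 and Rnf115, a cofactor of tetherin, by 0.14 ± 0.05, all inside the fold limit. Marchf8, described above, also belongs to this list. The mRNA of Nedd4, a ubiquitin ligase of Ifitm3, averaged at most 0.0321 TPM.

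Neighbours of the members in the genome were examined for the same changes. Within 25 kb of the cluster the only other gene outside the family above 1 TPM, besides the overlapping Gm45717, was Pgghg, which was not called in LPS against DMSO (-0.12, adjusted p = 0.36) or in LPS + Ska against LPS (-0.13, adjusted p = 0.4). Mvb12a, 5.46 kb from Bst2, fell with LPS by 0.59 (adjusted p = 0.0013) while Bst2 rose. Ctsd, next to Ifitm10, averaged 806 TPM in DMSO while Ifitm10 itself averaged 0.146 TPM.

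**Figure D5:**
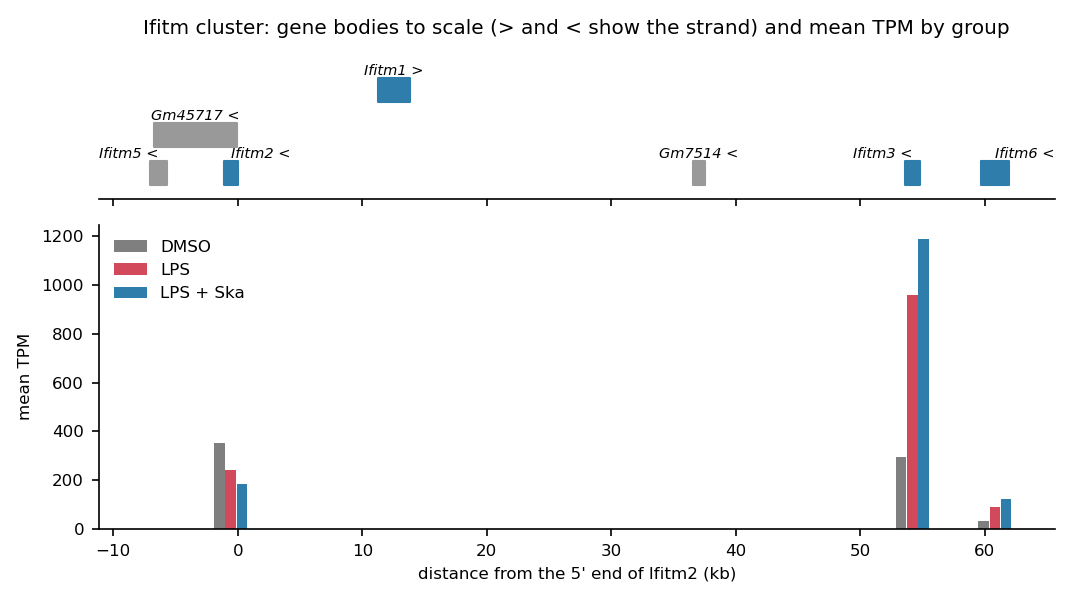
Gene bodies of the Ifitm cluster to scale (members in blue, other genes in grey, with < and > for the strand) by distance in kb from the 5′ end of Ifitm2, above bars of the mean TPM per group at each gene except Gm45717. The bars of Ifitm3 and Ifitm6 rise from DMSO to LPS + Ska, those of Ifitm2 fall from 354 to 186 TPM, and Ifitm1, Ifitm5 and Gm7514 show no visible bar.

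Shared sequence limits how well some members can be told apart. Gm45717, annotated as protein-coding at chr7:140949222-140955937 on the same strand, overlaps the exons of Ifitm2 and holds 219 of the 606 stretches of 50 bases in the Ifitm2 transcript (36.1%). It read 19.3, 66.9 and 72.0 TPM in DMSO, 43.2, 40.4 and 45.9 TPM under LPS and 19.0, 41.9 and 0 TPM under LPS + Ska, and whether reads were divided between it and Ifitm2 was not tested. With both genes added together, an alternative chosen after seeing the data, the level was 371, 437 and 412 TPM in DMSO, 284, 289 and 279 TPM under LPS and 205, 203 and 211 TPM under LPS + Ska. The groups still did not overlap, and the differences were -0.51 for LPS against DMSO and -0.46 for LPS + Ska against LPS. Ifitm2 shared 20 such stretches with Ifitm3 (3.30% of its own), and Ifitm6 and Bst2 shared none with any other gene of the expression table.

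The genes whose levels over the 9 columns were most like those of each member were found by Pearson r of log2(TPM + 1), as a description over columns of which 6 come from tied groups. For Ifitm3 these were Gm7993 (r = 0.9991), a processed pseudogene on another chromosome that shares none of its stretches of 50 bases, Dynlt1b (0.9990) and Fgfr1op (0.9956). For Ifitm6 they were Sema6d (0.9983), Atf1 (0.9967) and Dld (0.9961), and for Ifitm2 they were Gm5559 (0.9962), Nosip (0.9942) and Nans (0.9937). For Bst2 they were Apol9b (0.9931), Acy1 (0.9915) and Pla1a (0.9913), and Apol9b averaged 0.0328, 10.7 and 2.63 TPM in DMSO, LPS and LPS + Ska. Between members, r was 0.8266 for Bst2 with Ifitm3 and 0.7423 for Bst2 with Ifitm6.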

How the data were processed

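RNA of RAW264.7 cells was sequenced from NEBNext Ultra libraries in 9 samples, 3 per group. The submitters' processing notes name fastp 0.20.1, HISAT2 2.2.1, StringTie 2.0 and the mm10 build, and the authors deposited TPM (the length-corrected share of a gene among a column's transcripts) per gene, in columns summing to 999895 to 1000145 with 12498 to 13012 genes at 1 TPM or more. TPM holds no read counts, so that the depth of each sample is unknown and no counting interval is given, and a TPM is a share of the column, so that a change in abundant genes shifts all others. All columns were matched to samples by their names, and 55141 of the 55401 gene IDs matched a symbol. The series labels and the results text give 24 h of treatment and the methods text a longer time.

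Genes with a mean of at least 1 TPM over the 9 columns were fitted on log2(TPM + 1) over all 3 groups with limma 3.58.1 in R 4.3.3 (lmFit, then eBayes with an intensity trend), and two-sided p-values were adjusted by Benjamini-Hochberg over all tested genes. The procedure had first been run on simulated data. Those columns were drawn independently, so that run does not cover the tied columns. A gene was called below an adjusted p of 0.05 with a fold change above 1.5 or below 0.67. The members and gene lists were chosen with earlier results of these data known. Genes were named by rule: all members, every signalling gene called in LPS + Ska against LPS (1 of which is not reported here), the 4 most abundant effectors and the 3 with the largest and 3 with the smallest change in that comparison, every tested gene of the 3 shorter lists, and the 3 genes most like each member. Irf1, Irf5, Irf9, Jak1, Tyk2, Ifnb1, Isg20, Ifitm5, Ifitm7, Nedd4 and the macrophage markers Lyz2, Csf1r, Cd68, Cd14 and Fcgr1 were named outside it after their values were seen, as were the genes that neighbour or overlap a member. Positions and transcripts came from GENCODE M21 on GRCm38, and start-site windows from RefSeq (GRCm38.p6). Coding sequences were aligned end to end with Biopython 1.88. Where replicates 5, 6 and 7 were tied, the 2 recovered values were replicate 5 plus and minus 0.5 times the difference between replicates 6 and 5. Where replicate 6 was listed at 0, the difference between replicates 5 and 7 was used instead. Negative results were set to 0.

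Same-numbered columns were compared by the correlation of their deviations from the group means over genes. These were -0.00633, 0.0548 and 0.00848 for LPS with DMSO, 0.0801, 0.0263 and -0.032 for LPS + Ska with DMSO and 0.384, 0.151 and 0.128 for LPS + Ska with LPS, where the ties make the 3 values depend on each other, and no pairing was assumed. Alternatives were a pseudocount of 0.1, no filter or a mean of at least 5 TPM, median-ratio scaling, TPM recomputed after removal of 130 ribosomal protein and mitochondrial-genome genes (16.0% to 20.6% of a column), the compared groups alone, no intensity trend, the replicate number as a block, each column left out, recovered values and no limit on the fold change.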

Additional observations from a re-analysis of the deposited data

How the results depend on the processing

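All fold changes of the 4 tested members kept their sign under every alternative. Without a limit on the fold change the members called in LPS + Ska against LPS went from 1 to 4 and the signalling genes from 4 to 9. The share of all tested genes called without that limit was not counted, so nothing is read from these counts. Of the 5 signalling genes added, Irf5 had an adjusted p below 0.05 with recovered values (0.022), and Jak1 (0.088), Tyk2 (0.1), Irf1 (0.11) and Irf9 (0.13) did not. With a mean of at least 5 TPM, 14 effectors were tested instead of 21. Of the 14, 11 were called in LPS against DMSO and 8 in LPS + Ska against LPS. In the main fit 17 and 14 of the 21 were called. The share of all genes called at that filter was not counted, and nothing is read from the lower counts. With each column left out in turn, the members called ranged from 3 to 4 in LPS against DMSO, from 0 to 1 in LPS + Ska against LPS (0 without LPS + Ska replicate 6, where Bst2 differed by -0.57) and stayed at 4 in LPS + Ska against DMSO, and Ifitm2 was called lower with LPS (-0.58) without DMSO replicate 7. The difference of Bst2 between LPS + Ska and LPS ranged from -0.91 to -0.57. Since the columns of the LPS and LPS + Ska groups are tied, leaving 1 of them out does not remove a separate sample. Such ranges therefore do not show the weight of single samples in those groups. With the replicate block the members called were 3, 1 and 4 in the same order, and no call of a member changed. Without mitochondrial-genome and ribosomal protein genes, by construction, the summed Ifitm TPM was 825 in DMSO, 1605 with LPS and 1879 with LPS + Ska, with the shares as before.

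Estimates near 0 that changed sign were those of Ifi35, Zmpste24 and Setd7. Under median-ratio scaling they were 0.090 for Ifi35 and 0.082 for Zmpste24 in LPS + Ska against LPS, and 0.013, 0.033 and 0.046 for Setd7 in LPS against DMSO, LPS + Ska against LPS and LPS + Ska against DMSO. Without mitochondrial-genome and ribosomal protein genes Ifi35 was at 0.0079. With 1 column left out, in LPS + Ska against LPS, Ifi35 ranged from -0.10 to 0.084, Zmpste24 from -0.092 to 0.060 and Setd7 from -0.15 to 0.025, and in LPS against DMSO Setd7 ranged from -0.14 to 0.015. The cause was not tested. Depth is unknown, at most 2 separate values stand behind each LPS and LPS + Ska group, and 1 cell line was measured at 1 time.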
